A study of Mus musculus with 5 samples.

Results

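The 10 genes described here encode surface receptors and adaptors of the macrophage lineage: Csf1r, Adgre1, Cx3cr1, Tyrobp, Trem2, Fcer1g, Fcgr1, Fcgr2b, Fcgr3 and Fcgr4. They were picked by symbol, for what they are known to do, out of the 22183 genes in the deposited table, and all 10 were in it. Their transcripts were measured by poly(A) RNA sequencing in lenses of mice at postnatal day 14 (P14), in 2 conditional knockout (cKO) libraries and 3 control (Ctrl) libraries. Between 4 and 6 whole lenses were pooled for each library, and every test treats a pool as 1 replicate.

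The cKO lenses came from Yap1 f/f;Cre and Yap1 f/+;Cre mice, so homozygous and heterozygous floxed animals may share a pool, and only lenses with a severe phenotype were taken. The Ctrl lenses came from Yap1 f/f and Yap1 f/+ littermates that looked normal; their genotype label reads WT. The product of Yap1 is a co-activator of transcription that the Hippo pathway restrains. No source used here gives the Cre driver, the sex of the mice or the number of animals behind a pool. Genotype and the choice of severely affected lenses cannot be told apart in this design.

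CSF1R is the receptor tyrosine kinase through which CSF1 and IL-34 keep macrophages alive and dividing. Fc gamma receptors bind the constant part of IgG and couple antibody-coated targets to phagocytosis: FcγRI, FcγRIII and FcγRIV signal through the ITAM adaptor FcRγ (Fcer1g), while FcγRIIB carries an inhibitory ITIM. TREM2, a lipid and lipoprotein receptor, signals through a second ITAM adaptor, DAP12 (Tyrobp). The lens itself holds no blood vessels, and macrophages are known around it in the early postnatal eye, where they take part in clearing the fetal vessels.

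Start-site sequences are shown for 4 of the genes: Fcgr2b, Fcgr4 and Fcer1g, which were higher in cKO, and Fcgr1, which was not detected above the floor. RefSeq promoters (GRCm38.p6, from 250 bases before to 50 bases after the start site) were matched for 7 of the 10 genes, giving 8 promoters, 2 of them for Fcgr3. The letters searched for were GGAAGT on both strands, a core bound by ETS-family factors such as PU.1, the main transcription factor of the macrophage lineage. Capitals mark the match, which reads ACTTCC in all 3 promoters that hold it. Fcgr2b, Fcgr4 and Fcgr1 hold it, and Fcer1g, printed for contrast, does not. The 2 promoters of Fcgr3, which was also higher in cKO, and those of Cx3cr1 and Trem2 do not hold it either. The matched letters start at -31 in Fcgr2b (chr1:170976022-170976321, minus strand), at -24 in Fcgr4 (chr1:171018676-171018975, plus strand) and at -61 in Fcgr1 (chr3:96293920-96294219, minus strand), counted from the start site. The Fcer1g window is chr1:171234300-171234599 on the minus strand.
Fcgr2b: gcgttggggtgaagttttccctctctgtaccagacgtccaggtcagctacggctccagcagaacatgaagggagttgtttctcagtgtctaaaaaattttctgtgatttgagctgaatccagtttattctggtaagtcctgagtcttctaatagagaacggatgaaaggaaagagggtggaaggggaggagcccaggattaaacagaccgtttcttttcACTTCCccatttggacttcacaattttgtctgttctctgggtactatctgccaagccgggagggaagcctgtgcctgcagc
Fcgr4: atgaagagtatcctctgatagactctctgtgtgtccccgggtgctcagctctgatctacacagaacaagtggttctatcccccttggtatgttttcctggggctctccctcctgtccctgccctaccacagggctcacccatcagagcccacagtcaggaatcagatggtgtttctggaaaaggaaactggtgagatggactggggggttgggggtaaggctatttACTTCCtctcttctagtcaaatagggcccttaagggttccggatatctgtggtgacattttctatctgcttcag
Fcgr1: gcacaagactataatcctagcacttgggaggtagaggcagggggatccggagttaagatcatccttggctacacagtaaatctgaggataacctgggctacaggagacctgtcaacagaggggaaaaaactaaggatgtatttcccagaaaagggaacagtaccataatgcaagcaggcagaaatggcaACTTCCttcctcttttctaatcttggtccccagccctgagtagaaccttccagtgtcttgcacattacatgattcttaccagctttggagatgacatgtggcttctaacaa
Fcer1g: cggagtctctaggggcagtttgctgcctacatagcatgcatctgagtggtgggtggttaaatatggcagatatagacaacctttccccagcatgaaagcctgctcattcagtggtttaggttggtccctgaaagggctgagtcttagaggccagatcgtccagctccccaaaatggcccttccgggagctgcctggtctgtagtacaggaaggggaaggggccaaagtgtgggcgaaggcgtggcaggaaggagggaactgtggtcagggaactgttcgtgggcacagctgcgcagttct
Of all 32851 RefSeq promoters of that length, 23.8% hold these letters, so a match in 3 of 8 is a description only. Fcgr1, whose promoter holds the match, had 1 count in all 5 libraries together, whereas Fcer1g, whose promoter does not, had 177 in cKO 1.

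Macrophage receptor transcripts were scarce in control lenses and higher in both cKO pools. The 10 genes together had 1267 counts in cKO 1 and 388 in cKO 2, against 37, 11 and 19 in Ctrl 1, 2 and 3. As CPM (counts scaled to library size, with TMM scaling), the sums were 51.8 and 14.5 against 1.72, 0.537 and 0.730. In this bulk tissue, more cells of a type and more RNA per cell cannot be told apart. Library totals were 22047553 to 25762805 counts, but a value resting on 3 counts lies at only 0.112 to 0.146 CPM, and 3 counts is used here as the limit that a count of 0 allows. Of the 10 genes, 6 had enough counts to be tested by edgeR's quasi-likelihood test, and those 6 were all higher in cKO at a Benjamini-Hochberg adjusted p under 0.05, beside 5.76% of all 11724 tested genes called higher and 7.73% called lower. These 6 passed the count filter through the cKO pools (only Csf1r also through a Ctrl library), so their number is a description and no support. Fitted without that filter, all 10 had a value and the same 6 were called higher, beside 3.96% of 15761 genes. Leaving out any one of the 3 Ctrl libraries left 0 of the 6 called by edgeR, although all 6 stayed higher with an unadjusted p under 0.05. For 8 of the 10 genes both cKO pools lay above every Ctrl library, as they did for 17.5% of genes with a count; Adgre1 and Fcgr1 overlapped.

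**Figure D1:**
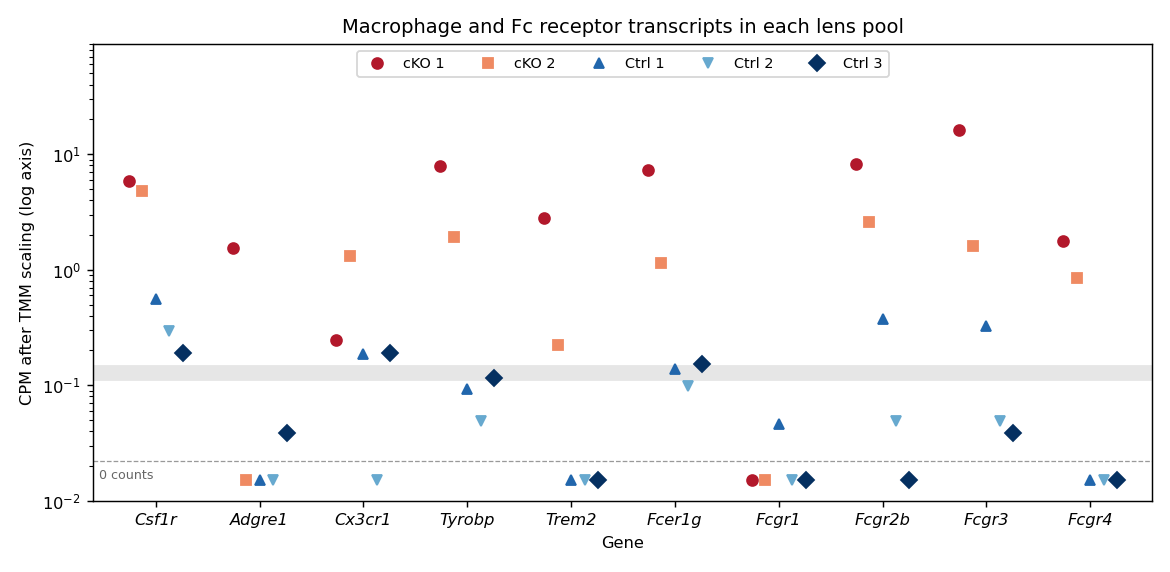
CPM after TMM scaling (log axis) of the 10 genes in each lens pool, 1 point per pool; the grey band is the CPM of 3 counts and points below the dashed line are at 0 counts. The cKO pools lie above all Ctrl pools for 8 genes, and cKO 2 is at 0 for Adgre1.

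Csf1r was the gene with the closest values in the 2 cKO pools. It had 145 counts in cKO 1 and 128 in cKO 2 against 12, 6 and 5 in the Ctrl libraries, or 5.92 and 4.77 CPM against 0.557, 0.293 and 0.192 CPM. Both cKO pools were far above every Ctrl library, with means of 5.35 ± 0.817 (SD, n = 2) and 0.347 ± 0.188 CPM (SD, n = 3). The log2 difference was 3.94 (SE 0.52, edgeR adjusted p = 0.0126), which is 15.3-fold. The deposited Csf1r count was not a whole number in 3 of the libraries, which means that part of its reads was assigned by estimate.

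Adgre1 encodes F4/80, the classic surface marker of mouse tissue macrophages. All 38 of its cKO counts were in cKO 1, with 0 in cKO 2 and 0, 0 and 1 in Ctrl 1, 2 and 3. At 0 counts, cKO 2 allows up to 0.112 CPM, while cKO 1 had 1.55 CPM. The pooled ratio of cKO to Ctrl was 50.4 with an exact 95% interval of 8.52 to 2043, which covers counting error only. Fitted without the count filter, Adgre1 did not pass (log2 difference 5.31, SE 2.04, edgeR adjusted p = 0.144).

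Cx3cr1, the fractalkine receptor of microglia and patrolling monocytes, ran the other way between the cKO pools, with 6 counts in cKO 1 and 35 in cKO 2. The Ctrl libraries had 4, 0 and 5. In CPM, cKO 1 (0.245) lay just above the highest Ctrl library (0.192), and cKO 2 stood at 1.30. The log2 difference without the count filter, 2.58 (SE 1.32, edgeR adjusted p = 0.254), did not pass.

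Among the 9 listed ligands of these receptors, 7 were tested, 2 rose and 1 fell, beside 5.76% of all tested genes higher and 7.73% lower. The median log2 difference was 0.37 beside -0.06 over all tested genes. Cx3cl1, fractalkine itself, is the one that fell: it had 3 and 0 counts in cKO against 419, 305 and 310 in Ctrl. Its mean was 0.0613 ± 0.0866 CPM (SD, n = 2) against 15.4 ± 3.80 CPM (SD, n = 3), a log2 difference of -7.91 (SE 0.69, edgeR adjusted p = 0.00464). Within the cKO group, 3 and 0 counts of this ligand cannot be told apart at this depth. The CSF1R ligands did not pass: Csf1 had 95 and 85 counts in cKO against 70, 85 and 21 in Ctrl (log2 difference 0.37, SE 0.65, edgeR adjusted p = 0.741). Il34 had 17 and 24 counts against 1, 4 and 17 (log2 difference 1.37, SE 1.02, edgeR adjusted p = 0.402).

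The 2 lipid- and glycan-binding TREM2 ligands that rose were Apoe and Lgals3. Apoe, the apolipoprotein that TREM2 binds, had 850 and 839 counts against 218, 130 and 209, a log2 difference of 2.01 (SE 0.22, edgeR adjusted p = 0.008). Lgals3, which encodes galectin-3, had 5636 and 1902 counts against 787, 640 and 458 (log2 difference 2.40, SE 0.52, edgeR adjusted p = 0.0355). Clu, an abundant lens transcript that encodes clusterin, did not pass (log2 difference -0.14, edgeR adjusted p = 0.716).

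Both ITAM adaptors rose. Tyrobp had 194 and 52 counts in cKO and 2, 1 and 3 in Ctrl, that is 7.92 and 1.94 CPM against 0.0928, 0.0488 and 0.115 CPM. The groups were widely apart, with a log2 difference of 5.74 (SE 0.80, edgeR adjusted p = 0.014), or 53.3-fold. Fcer1g had 177 and 31 counts in cKO and 3, 2 and 4 in Ctrl. Its mean was 4.19 ± 4.30 CPM (SD, n = 2) against 0.130 ± 0.0291 CPM (SD, n = 3), a log2 difference of 4.94 (SE 0.89, edgeR adjusted p = 0.0237). Every Ctrl count of the pair was between 1 and 4, at or near the limit of what can be counted.

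Per transcript length, Tyrobp was the highest of the 10 in both cKO pools, at 14.1 and 4.07 FPKM (fragments scaled by transcript length and library depth). Fcer1g stood at 10.8 and 2.03 FPKM. The FPKM ratio of Fcer1g to Tyrobp was 0.767 in cKO 1 (exact 95% interval of 0.622 to 0.945) and 0.499 in cKO 2 (0.309 to 0.793), and those intervals overlap.

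Trem2 had 68 counts in cKO 1, 6 in cKO 2 and 0 in each Ctrl library. The mean was therefore at least 11.2-fold higher in cKO, taking each Ctrl library at 3 counts. Trem2 was below the count filter in cKO 2 and was fitted only without it (edgeR adjusted p = 0.0551), where it did not pass; DESeq2's Wald test called it (adjusted p = 0.0023). Relative to its adaptor, the Trem2 to Tyrobp FPKM ratio was 0.183 in cKO 1 (exact 95% interval of 0.137 to 0.242) and 0.0598 in cKO 2 (0.0210 to 0.139).

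Of 17 genes that rise in TREM2-dependent microglia, taken as a list, 14 were tested, 6 rose and 0 fell. Over all tested genes, 5.76% were called higher and 7.73% lower. The median log2 difference of the list was 1.33 beside -0.06 over all tested genes. It was 0.88 without cKO 1 and 2.44 without cKO 2, though the tested genes can differ between these fits. Of the 8 not called, Axl (log2 difference -1.04), Lpl (-0.74), Cd36 (-0.39) and Fabp5 (-0.09) were below 0 and the rest above. The list includes Apoe and Lgals3, counted above; without Ctrl 1 only 1 of its genes was called, and without Ctrl 2 or Ctrl 3 edgeR called 0 (8 and 7 at an unadjusted p under 0.05). Of the 6 that rose, 3 (Itgax, Spp1 and Ccl6) were under the count filter in every Ctrl library. Itgax, which encodes the integrin CD11c, had 126 and 44 counts in cKO and 0 in every Ctrl library, at least 25.4-fold higher (edgeR adjusted p = 0.0244). Spp1, which encodes osteopontin, had 319 and 46 counts against 3, 1 and 0 (log2 difference 6.83, SE 1.21, edgeR adjusted p = 0.0227). Of the 26 receptors in the table that pair with Tyrobp or Fcer1g, 11 had a count and 0 had enough counts to be tested; their summed CPM was 3.23 and 0.41 against 0.146 to 0.418.

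Fcgr3, Fcgr2b and Fcgr4 rose, and Fcgr1, the gene of the high-affinity receptor, was not detected above the floor. Fcgr3, the activating receptor FcγRIII, had 396 and 43 counts in cKO and 7, 1 and 1 in Ctrl. This was 16.2 and 1.60 CPM against 0.325, 0.0488 and 0.0384 CPM, so the pools of the cKO group differed from each other by more than any Ctrl library reached. The log2 difference was 6.0 (SE 1.22, edgeR adjusted p = 0.0304), or 63.8-fold. Fcgr2b, the inhibitory receptor, had 200 and 70 counts in cKO and 8, 1 and 0 in Ctrl. Its CPM values were 8.17 and 2.61 against 0.371, 0.0488 and 0, a log2 difference of 5.26 (SE 1.14, edgeR adjusted p = 0.0353). Transcripts of Fcgr2b and Fcgr3 share sequence: 10.2% of the 50-base words of Fcgr3 also occur in Fcgr2b in the GENCODE M21 transcripts. The deposited counts of both were whole numbers in every library.

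Fcgr4, which encodes the activating receptor FcγRIV, had 43 and 23 counts in cKO and 0 in every Ctrl library. It was at least 9.78-fold higher, taking each Ctrl library at 3 counts (edgeR adjusted p = 0.033). Fcgr1, the high-affinity receptor CD64 that is often used to mark tissue macrophages, had 0 counts in both cKO pools and in Ctrl 2 and 3, and 1 count in Ctrl 1. The 0 counts allow up to 0.123 CPM in cKO 1 and 0.112 CPM in cKO 2, below the 1.76 and 0.857 CPM of Fcgr4.

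The mix of Fc gamma receptors differed between the 2 cKO pools. Of the summed Fcgr FPKM, Fcgr3 made up 63.9% in cKO 1 and 32.8% in cKO 2, and Fcgr2b 28.7% and 48.5%. The remainder was Fcgr4, at 7.42% and 18.7%. The Fcgr3 to Fcgr2b FPKM ratio was 2.23 in cKO 1 (exact 95% interval of 1.87 to 2.65) and 0.676 in cKO 2 (0.452 to 1.00), so the intervals of the 2 pools did not overlap. With 1 pool on each side, this compares those libraries and not a condition. The Fcgr4 to Fcgr2b ratio, 0.259 (0.181 to 0.361) and 0.386 (0.230 to 0.627), overlapped.

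**Figure D2:**
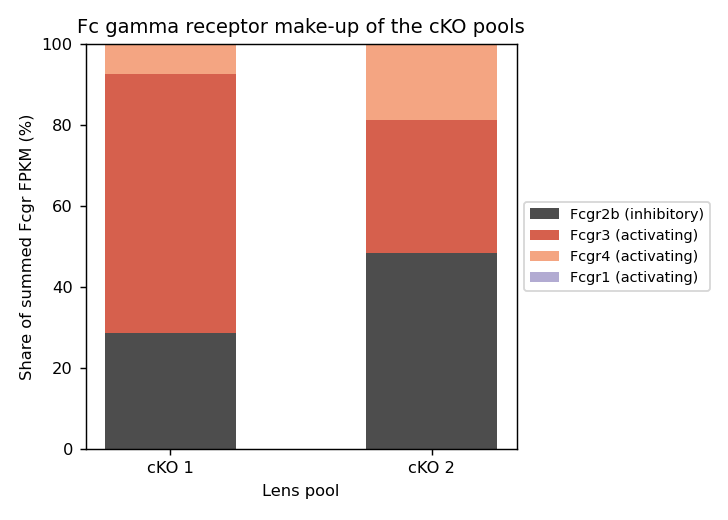
Share of the summed Fcgr FPKM (percent) in each cKO pool, stacked by receptor. Fcgr3 makes up 63.9% of cKO 1 and 32.8% of cKO 2, Fcgr2b 28.7% and 48.5%, and Fcgr1 is at 0 in both.

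IgG, the ligand of these receptors, was barely represented at the transcript level. Of 13 immunoglobulin constant genes, 4 had a count, 2 were tested and 1 fell, beside 7.73% of all tested genes lower. The IgG heavy chain genes were at 0 in all 5 libraries. The gene that fell, Ighm, which encodes the heavy chain of IgM, had 0 counts in both cKO pools against 73, 52 and 39, at least 21.1-fold lower (edgeR adjusted p = 0.0151). Antibody protein is not measured by these data. Of 12 other Fc receptors, 4 had a count and 2 were tested: Fcgrt, which encodes the neonatal Fc receptor, did not pass (log2 difference 0.15, edgeR adjusted p = 0.721), nor did Trim21 (log2 difference -2.29, edgeR adjusted p = 0.373).

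The signalling machinery shared by these receptors was read from 2 lists. Of 32 genes of ITAM signalling, 22 were tested, 1 rose and 3 fell, beside 5.76% of all tested genes higher and 7.73% lower. The median log2 difference was -0.56 beside -0.06 over all tested genes. With total-count scaling 3 rose and 3 fell. The median was -0.62 without cKO 1 and -0.26 without cKO 2, though the tested genes can differ between these fits. Syk, the kinase that docks on phosphorylated ITAMs, had 11 and 69 counts in cKO against 12, 1 and 9 and did not pass (log2 difference 2.23, edgeR adjusted p = 0.217). Nckap1l, a subunit of the leukocyte WAVE complex that drives actin assembly, rose in both pools, with 283 and 306 counts against 63, 71 and 90 (log2 difference 1.80, SE 0.22, edgeR adjusted p = 0.0103). The genes that fell were Tec (1 and 0 counts in cKO against 65, 48 and 57 in Ctrl), Plcg2 and Plcg1. Plcg2, a phospholipase of ITAM pathways in blood cells, had 0 counts in both cKO pools against 22, 19 and 35, at least 9.37-fold lower (edgeR adjusted p = 0.023).

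Of 8 genes of ITIM signalling, which turns these receptors down, 5 were tested and edgeR called 0 (1 at an unadjusted p under 0.05; DESeq2 called 1 of 8); the phosphatase gene Ptpn11, encoding SHP2, had a log2 difference of -0.20 (edgeR adjusted p = 0.575). None of the 5 tested of 16 inhibitory ITIM receptors in the table passed either, and 2 had an unadjusted p under 0.05 (DESeq2 called 0). Their median log2 difference was 1.62. Without cKO 2 the median was 5.63, but over a different set, since genes with enough counts in cKO 1 alone were then tested too. Sirpa, which reads the CD47 signal, had a log2 difference of 0.23 (edgeR adjusted p = 0.577). The summed CPM of the 16 was 23.3 and 12.4 in cKO against 7.32 to 9.37 in Ctrl. Of 7 phagocyte oxidase genes, which make the superoxide burst, 2 were tested. There edgeR called 0, at an unadjusted p under 0.05 also 0 (DESeq2 called 0 of 7). The median log2 difference was 0.92. It was 4.68 without cKO 2, where genes with enough counts in cKO 1 alone were tested too, so these medians cover different genes. Cyba had a log2 difference of 0.89 (edgeR adjusted p = 0.162).

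The macrophage label was read against 26 other macrophage markers. All 26 had a count, 12 were tested, and 9 rose and 0 fell, beside 5.76% of all tested genes higher and 7.73% lower. The median log2 difference was 4.57 beside -0.06 over all tested genes. Of the 9, 7 were under the count filter in every Ctrl library and were tested through the cKO pools, so their direction was largely set by the filter; Ctss and Lyz2 were over it in a Ctrl library. Fitted without the filter, 9 of the 26 were called higher and 0 lower, beside 3.96% of 15761 genes called higher. The summed CPM of the 26 was 140 in cKO 1 and 24.0 in cKO 2 against 2.73 to 5.57 in Ctrl. Of the 26, 22 were higher in cKO 1 than in cKO 2. Without any one Ctrl library edgeR called 0 of the list, with 10 at an unadjusted p under 0.05. The median log2 difference was 3.1 without cKO 1 and 5.5 without cKO 2. With a single cKO pool the filter lets in genes counted in that pool alone, so the tested markers differ from those of the main fit. Ctss, which encodes the lysosomal protease cathepsin S, had 1433 and 135 counts in cKO against 6, 2 and 11 (log2 difference 6.82, SE 1.15, edgeR adjusted p = 0.021). Lyz2, encoding macrophage lysozyme, had 503 and 195 counts against 10, 5 and 18 (log2 difference 4.86, SE 0.60, edgeR adjusted p = 0.0107). Of the 3 tested and not called, Cd68 and Cyth4 were above 0 and Mertk ran the other way. Mertk had 0 and 11 counts in cKO against 22, 15 and 18 in Ctrl (log2 difference -1.95, edgeR adjusted p = 0.341). Among the markers not tested, Lyve1 had 0 counts in both cKO pools against 1, 0 and 6. Spi1, the gene for PU.1, had 44 counts in cKO 1, 0 in cKO 2 and 2, 0 and 0 in Ctrl, and was not tested. Of the 16 macrophage transcription factors, 7 were tested and 1 rose, beside 5.76% of all tested genes. It was Maf (log2 difference 1.00, edgeR adjusted p = 0.0212). In cKO 2, therefore, Spi1, Adgre1 and Fcgr1 were at 0 while Csf1r, Tyrobp and Fcgr2b were not.

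Several of these receptors are also carried by other leukocytes, and the markers of those cells are given list by list. Of 7 monocyte markers 5 had a count, at 371.5 and 35.4 CPM in all in cKO against 0.0384 to 0.146 in Ctrl, most of it Chil3. Of 5 platelet and megakaryocyte markers 4 had a count, at 4.25 and 3.05 CPM in all against 0.422 to 0.781. Pf4, which encodes platelet factor 4 and is also made by some macrophages, had 67 and 17 counts against 3, 0 and 1 (log2 difference 4.72, edgeR adjusted p = 0.0506), and Itga2b, the platelet integrin gene, had 37 and 57 against 12, 14 and 10 (log2 difference 1.74, edgeR adjusted p = 0.0893). Of 10 neutrophil markers 3 had a count, with summed CPM of 1.06 and 0.559 in cKO against 0.0976 to 0.192 in Ctrl, and S100a9, Mpo, Elane and Ly6g were at 0 in every library. Of 8 mast cell markers 2 had a count, and Cpa3, Fcer1a and Ms4a2 were at 0. Of 6 B cell markers 2 had a count, at 1.35 CPM in all in cKO 1 and 0 in cKO 2, with Cd79a and Cd79b at 0. Of 11 T and NK cell markers 5 had a count, at 3.55 and 4.17 CPM against 2.11 to 2.50, most of it Nkg7, with Cd3e and Ncr1 at 0. Of 8 dendritic cell markers 4 had a count and 2 were tested, of which Itgax (above) rose. The other, Zbtb46, ran the opposite way, with 0 and 14 counts in cKO against 40, 79 and 36 in Ctrl. It did not pass (log2 difference -3.13, edgeR adjusted p = 0.147). Microglia markers were mixed: of 11, 4 were tested, 1 rose and 1 fell, beside 5.76% of all tested genes higher and 7.73% lower. The microglia marker that fell was Olfml3 (log2 difference -3.81, edgeR adjusted p = 0.00546). What part any of these cells has in the receptor counts was not tested.

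How far the 2 cKO pools differed depended on the receptor. The ratio of CPM in cKO 1 to cKO 2 ran from 12.4 for Trem2 (exact 95% interval of 5.42 to 35.1) and 10.1 for Fcgr3 (7.36 to 14.2) down to 1.24 for Csf1r (0.973 to 1.59). Fcer1g (6.26), Tyrobp (4.09), Fcgr2b (3.13) and Fcgr4 (2.05) lay between them. Cx3cr1 alone was below 1, at 0.188 (0.0646 to 0.452). The intervals cover counting error only and the pools have no replicate, so this is a comparison of 2 libraries. Haemoglobin and other erythroid markers also differed between these pools, at 65.6 and 2.20 summed CPM, and their part in the result was not tested; the Ctrl libraries had 5.42 to 50.01.

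**Figure D3:**
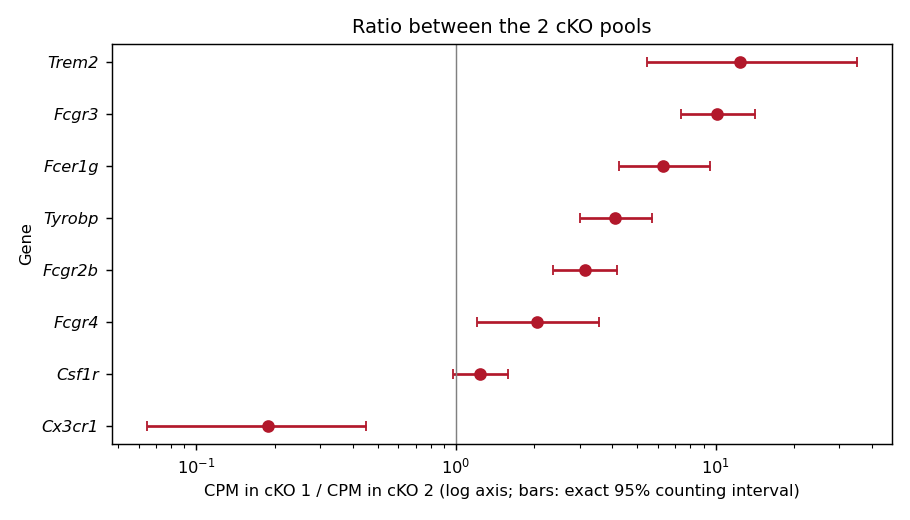
CPM in cKO 1 divided by CPM in cKO 2 (log axis) for the 8 genes counted in both pools; bars are exact 95% counting intervals and the vertical line is a ratio of 1. Trem2 (12.4) and Fcgr3 (10.1) are farthest to the right, the interval of Csf1r (0.973 to 1.59) crosses the line, and Cx3cr1 (0.188) lies to its left.

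Set against the mean of the 12 tested other macrophage markers in the same pool, which was itself 1.63 log2 units higher in cKO 1 than in cKO 2, Fcgr2b held the same place in both pools (1.28 and 1.30 log2 units above that mean). Tyrobp did nearly so, at 1.24 and 0.88. Csf1r stood at 0.82 in cKO 1 and 2.15 in cKO 2, and Fcgr3 at 2.26 and 0.62. Cx3cr1 moved most, from -3.37 to 0.34. Trem2 was below the mean in both, at -0.25 and -1.84. That mean includes Mertk, at 0 counts in cKO 1, and Cyth4, at 0 counts in cKO 2, where the values rest on the added prior count.

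**Figure D4:**
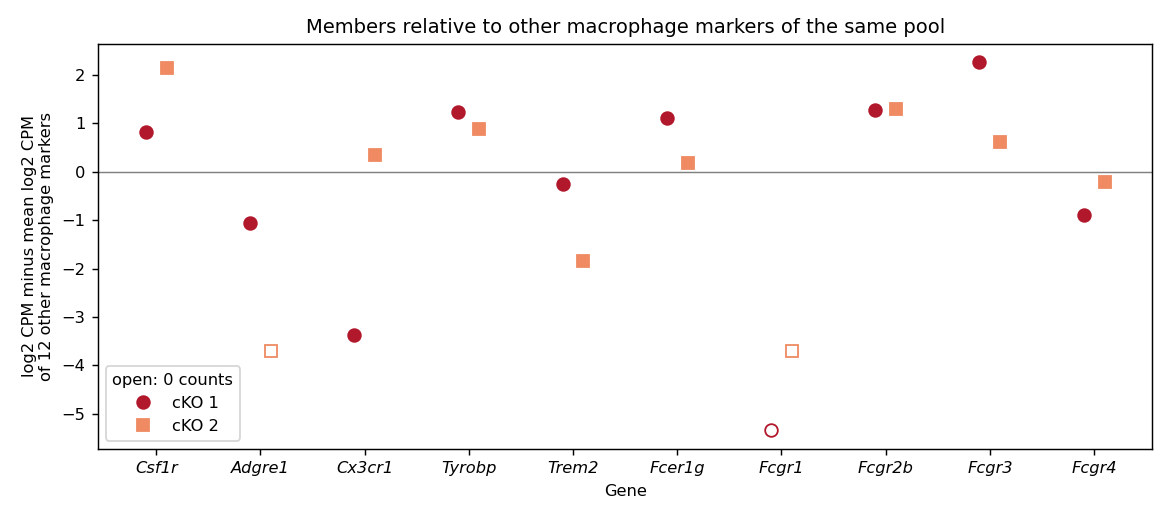
Log2 CPM of each gene minus the mean log2 CPM of 12 other macrophage markers in the same cKO pool, with the line at 0 marking that mean. Open symbols are at 0 counts, where the value rests on the added prior count; Fcgr2b sits at 1.28 and 1.30, while Cx3cr1 is at -3.37 in cKO 1 and 0.34 in cKO 2.

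Across all 5 libraries, the genes whose log2 CPM pattern lay nearest to the mean pattern of the 6 tested receptors and adaptors were Laptm5, Serpina3g, Cox6a2, Mobp and Postn, among 10053 candidates. Their root mean square differences from that pattern were 0.297, 0.309, 0.340, 0.351 and 0.372 log2 units over 5 libraries. Laptm5, a lysosomal membrane protein of blood cells, had 191 and 58 counts in cKO against 8, 4 and 5. Postn encodes the matrix protein periostin, Mobp a myelin protein and Cox6a2 the muscle form of a cytochrome oxidase subunit, so a near pattern over these pools was not limited to macrophage genes. Among the 10 genes themselves, Tyrobp was nearest to that mean pattern (0.366) and Cx3cr1 (1.79) and Fcgr1 (2.28) were farthest.

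In the pathway columns of the authors' deposited table, 7 of the 10 genes share the KEGG term osteoclast differentiation. Osteoclasts are bone-resorbing cells of the same CSF1R-dependent lineage. That term holds 128 genes, of which 87 were tested, 9 rose and 7 fell, with a median log2 difference of -0.03, beside 5.76% of all tested genes higher and 7.73% lower. The 4 Fc gamma receptors share the term phagosome, with 102 genes tested, 17 higher and 6 lower (median 0.27). Both counts include the receptors themselves.

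The floxed gene itself had 92 and 61 counts in cKO against 155, 133 and 143 in Ctrl (Yap1, log2 difference -1.08, SE 0.33, edgeR adjusted p = 0.0759), lower in both cKO pools but not past the threshold. Transcripts of the Y-linked gene Ddx3y had 0 counts in both cKO pools and 656, 812 and 854 in Ctrl, so sex and genotype cannot be told apart for any gene here. Of 8 tested lens epithelium markers, 4 were lower in cKO (Pax6, Cdh1, Gja1 and Npnt), beside 7.73% of all tested genes. Of the 4 not called, Foxe3 was lower (log2 difference -3.36, edgeR adjusted p = 0.0554). Dkk3 (0.0008), Sfrp1 (-0.25) and Itga6 (0.06) differed little between groups, but cKO 1 lay below and cKO 2 above every Ctrl library. Dkk3 had 906 and 1885 CPM in cKO 1 and cKO 2 against 1274 to 1495 in Ctrl. Sfrp1 had 264 and 573 against 437 to 551, and Itga6 had 64.8 and 107.6 against 78.3 to 87.6. Of all 8 markers, 4 were higher in cKO 1 than in cKO 2. What part the lens epithelium has in the receptor results was not tested.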

How the data were processed

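Per the labels' protocols, poly(A) RNA of 5 lens pools was sequenced in paired reads of 150 bp. Expected counts and FPKM per gene were deposited by the authors in 1 annotated table. RSEM, Trimmomatic 0.18.0 and the build GRCm39 are listed per the submitters' processing notes; no source used here states the aligner or whether strand was used. Expected counts were rounded to whole numbers; 6.03 to 7.47% of values per library were not whole. Library totals were 22047553 to 25762805.

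Counts were scaled by TMM and tested with edgeR 4.0.16 (R 4.3.3, quasi-likelihood, group as the only term). The filter was filterByExpr with a minimum count of 10 and a total of 15. Genes were called at a Benjamini-Hochberg adjusted p under 0.05. The test was checked on simulated data in which every gene had the same dispersion between pools. That check does not cover pools that differ as the cKO pools do here. Alternatives were DESeq2 1.42.0, limma 3.58.1 on log2 FPKM, other scalings and filters, a replicate block and leaving out each library. FPKM as deposited was used to compare genes per length. Ratios carry exact 95% intervals for counting error only, and nothing says whether pools share animals, so p-values measure the spread between pools.

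The members and lists were chosen with earlier results of these data known. Named genes were all 10 members, of each list the 2 most abundant tested and the 2 most changed called genes, 5 nearest-pattern genes and Yap1; others, such as Spi1, Syk, Csf1, Il34 and Ddx3y, were chosen after their values were seen. Some genes that this rule names are not reported here. Protein sequences were not used here.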

Additional observations from a re-analysis of the deposited data

How the results depend on the processing

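Each of the 6 tested genes was higher in cKO under every setting that fitted it. For 5 of them, under the count filter in every Ctrl library, that direction was largely set by the filter. Without any one Ctrl library 0 of 6 were called. Without cKO 1 there were 7 genes tested and without cKO 2 there were 8, with median log2 differences of 3.77 and 6.35. The filter then needed only a single cKO pool, so the tested set changed. That pool was assumed to vary like the Ctrl libraries. A minimum count of 50 left 3 tested and 3 called. The labels share replicate numbers without saying that they pair pools, and the same-numbered pools had correlations of 0.111 and -0.083; with the number as a block, 1 of 6 was called (Fcgr3), and 175 genes in all. Calls over all genes went from 1581 to 2727 with DESeq2 and from 21 to 5161 with 1 library left out. Total-count scaling gave 1234 higher and 717 lower beside 675 and 906, and moved the median of all genes by 0.22; FPKM gave 1280 and 626 with a pseudocount of 1 and 1310 and 720 with 0.1. No list gene called with TMM changed sign under the other scalings or on log2 FPKM.

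The median log2 difference of the tested genes was 5.50 (5.10 with Fcgr4 at its bound), 1.61 on log2(FPKM + 1), 3.83 on log2(FPKM + 0.1) and 3.77 to 6.67 with 1 library left out. The median of the tested genes relative to the other markers was 0.96 log2 units, 1.28 on log2(FPKM + 0.1) and 0.75 to 1.17 with 1 library left out. The Fcgr3 share was 48.3% on average over the cKO pools, 46.8% by CPM and 32.8 to 63.9% with 1 library left out. Low counts limit the Ctrl values, most of which rest on fewer than 10 counts.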

Other observations

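Among 7 monocyte markers, 5 had a count and 2 were tested. Both were at 0 in every Ctrl library and passed the count filter through the cKO pools alone, so their direction was set by the filter. Chil3, which encodes the chitinase-like protein Ym1 of activated macrophages, had 9031 and 923 counts in cKO and 0 in every Ctrl library, at least 1509-fold higher (edgeR adjusted p = 0.0263). F10, the gene for coagulation factor X, had 66 and 13 counts in cKO and 0 in every Ctrl library, at least 11.9-fold higher (edgeR adjusted p = 0.0473). Ly6c2, a marker of inflammatory monocytes, was at 0 in all 5 libraries. Endothelial markers summed to 25.4 and 14.8 CPM in cKO against 6.64 to 11.7 in Ctrl. Of the 8, edgeR called 0 and DESeq2 called 3. At an unadjusted edgeR p under 0.05 there were 5: Cldn5, Vwf, Tie1 and Pecam1 were higher in cKO and Tek was lower (log2 difference -0.88). Kdr, not among these 5, was also below 0 (-1.13).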
